A study of Mus musculus with 12 samples.

Results

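Nuclear receptor coregulators are proteins that bind ligand-activated or unliganded nuclear receptors and raise or lower the transcription of their target genes. The account covers 9 of them, chosen by gene symbol among the 23955 symbols of the count table: the coactivators Ncoa1, Ncoa2, Ncoa3, Med1, Ppargc1a and Ppargc1b, the transcriptional regulator Prdm16, and the corepressors Ncor1 and Nrip1. All 9 had a row and all 9 passed the filter on low counts, which kept 12323 genes. The cells were bone marrow mesenchymal stem cells from female C57BL/6 mice, bought as a commercial stock and used at passages 9 to 10. After reaching confluence, fat cell formation was induced in every culture for 14 days with insulin (5 ug/mL), dexamethasone (1 uM) and isobutylmethylxanthine (0.5 mM). The vehicle group (DMSO) had 0.1% dimethyl sulfoxide, the ROSI group 500 nM rosiglitazone, an agonist of PPARγ, and the TBT group 50 nM tributyltin, an organotin that activates both RXR and PPARγ. The 2 ligands were thus given at different doses, and undifferentiated cells are not analysed here. Each group had 4 RNA-seq libraries. The labels do not say whether these came from separate cultures, so p-values reflect only how much these libraries vary, and that variation may be technical.

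A PPARγ-RXR dimer on DNA exchanges partners when it binds an agonist. Without agonist it holds NCoR-type corepressors, which bring histone deacetylase 3; with agonist it takes up p160 coactivators, which bring the acetyltransferases CBP and p300, and Mediator, which contacts RNA polymerase II through subunits such as MED1. PGC-1 coactivators and PRDM16 favour mitochondrial and brown fat genes in fat cells, whereas NRIP1 (RIP140) binds agonist-bound receptors and represses oxidative genes.

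The sequence before the start site is shown for those members that changed in at least 1 comparison and have an entry in the RefSeq promoter table (GRCm38.p6, 250 bases before the start, minus strand of each chromosome, 5′ to 3′). Entries were found for 6 of the 9 members. Ncoa2, Ncoa3 and Ppargc1b had none. Capitals mark matches, on either strand, to TGACGTCA (the cyclic AMP response element), TGACG (its shorter form, which also lies inside TGACGTCA), AGGTCA (the nuclear receptor half-site), GGGCGG (the GC box), CCAAT or CACGTG (the E-box).
Ncoa1, chr12:4477183-4477432: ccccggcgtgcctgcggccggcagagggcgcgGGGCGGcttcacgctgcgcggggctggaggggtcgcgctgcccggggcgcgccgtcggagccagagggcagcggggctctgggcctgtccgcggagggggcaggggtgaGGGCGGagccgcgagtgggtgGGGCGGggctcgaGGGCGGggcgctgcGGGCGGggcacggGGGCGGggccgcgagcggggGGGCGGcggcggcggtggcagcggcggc
Ppargc1a, chr5:51567726-51567975: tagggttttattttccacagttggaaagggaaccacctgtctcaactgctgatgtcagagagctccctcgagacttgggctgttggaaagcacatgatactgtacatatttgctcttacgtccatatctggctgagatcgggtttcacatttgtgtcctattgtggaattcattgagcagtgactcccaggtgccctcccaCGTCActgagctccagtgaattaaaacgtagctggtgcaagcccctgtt
Prdm16, chr4:154636874-154637123: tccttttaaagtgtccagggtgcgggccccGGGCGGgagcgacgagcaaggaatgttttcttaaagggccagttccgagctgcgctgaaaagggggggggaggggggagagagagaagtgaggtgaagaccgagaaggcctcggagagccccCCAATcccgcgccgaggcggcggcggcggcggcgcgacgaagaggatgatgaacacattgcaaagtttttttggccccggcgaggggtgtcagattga
Nrip1, chr16:76373828-76374077, the outer of 2 listed starts: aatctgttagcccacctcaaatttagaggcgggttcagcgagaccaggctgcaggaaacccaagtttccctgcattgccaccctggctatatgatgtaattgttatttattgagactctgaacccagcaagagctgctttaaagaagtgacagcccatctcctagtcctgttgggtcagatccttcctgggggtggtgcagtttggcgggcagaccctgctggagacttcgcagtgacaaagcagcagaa
Ncoa1 has 7 GC boxes in a window of 85.6% G and C. The Ppargc1a window has 1 TGACG, on the strand opposite to the gene, and is 48% G and C. Prdm16 has 1 GC box and 1 CCAAT, and the outer Nrip1 window has none of the 6 motifs, while the window before its inner start holds GGGCGG. Over all 32851 windows of this length, 32.7% hold GGGCGG, 33.8% CCAAT, 17.8% TGACG, 14.0% AGGTCA, 6.02% CACGTG and 1.55% TGACGTCA. A match describes letters only.

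The libraries held 4027152 to 7474654 counts. TBT 4, the TBT library labelled replicate 4, stood apart from its group: its mean correlation with the other TBT libraries was 0.953, below that with the DMSO libraries, 0.961, and the ribosomal RNA gene Rn45s took 6.85% of its counts against 0.399 to 0.670% in TBT 1 to 3. Rn45s took 2.64 to 6.18% in DMSO and 1.36 to 9.27% in ROSI, so every library of those groups was above TBT 1 to 3. The part of this difference in the TBT values, with or without TBT 4, was not tested. Counts on 1504 sensory receptor symbols, which fat or stromal cells are not expected to express, summed to 530.0 ± 228 CPM (counts scaled to library size; mean ± SD, n = 4, as for all CPM values below) with vehicle, to 69.9 ± 6.85 with rosiglitazone and to 142 ± 36.0 with tributyltin. The 8 adipocyte markers, of which 7 were tested and none was at 0 in any group, summed to 240 to 608 CPM in DMSO, 1771 to 1900 in ROSI and 633 to 1004 in TBT. Fabp4, at mean levels of 147, 1163 and 464 CPM in DMSO, ROSI and TBT, and Cidec, at 91.0, 445 and 147, made up most of these sums. By mean level Plin1, at 15.7, 75.0 and 51.7 CPM, and Pparg, at 62.6, 82.9 and 79.9, were also higher with both ligands, though Pparg was not called. Cebpa, at 22.1, 55.7 and 21.7 CPM, was higher in ROSI only. Adipoq, Cfd and Lep did not follow Fabp4 and Cidec: Adipoq stood at 10.7, 13.3 and 2.30 CPM, Cfd at 12.6, 7.08 and 3.35 and Lep at 0.705, 0.063 and 0.108. The 8 stromal markers, mostly Pdgfra and Ly6a, summed to 2099 to 2831, 759 to 845 and 1349 to 1819 CPM. Pdgfra had mean levels of 1339, 461 and 761 CPM and Ly6a of 955, 130 and 506. Pdgfrb (121, 64.7 and 106), Thy1 (11.1, 8.42 and 7.76) and Cd44 (59.8, 56.1 and 40.3) were also highest in DMSO. Vcam1 (64.3, 76.8 and 82.1) and Nt5e (5.64, 6.15 and 7.59) went the other way. Eng was near 0, at 0.425, 0.327 and 0.198 CPM. The 6 osteoblast markers, mostly Spp1 and Runx2, summed to 520 to 772 CPM with vehicle, 224 to 325 with rosiglitazone and 336 to 492 with tributyltin. Spp1 had mean levels of 404, 92.8 and 192 CPM in DMSO, ROSI and TBT. Runx2, at 216, 171 and 212, was nearly level between DMSO and TBT, and Alpl, at 26.7, 19.2 and 30.2, was highest in TBT. Bglap, Sp7 and Ibsp were near 0. The 4 smooth muscle markers, mostly Acta2, summed to 704 to 907, 334 to 383 and 618 to 1076 CPM, where TBT 4 had the 1076 and TBT 1 to 3 had 618 to 716. The part of these markers in the values below was not tested. Macrophage, endothelial and skeletal muscle markers summed to at most 20.8, 7.25 and 0.950 CPM in any library, with Myod1, Myog, Ckm and Tie1 at 0 in every group.

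In ROSI against DMSO, 2 of the 9 members rose (Ncoa1 and Ppargc1b) and 1 fell (Ncoa3), at an adjusted p under 0.05 in edgeR's quasi-likelihood test with Benjamini-Hochberg adjustment over all genes. Over all 12323 genes 10.0% were called higher and 12.6% lower in that comparison. In TBT against DMSO 2 members rose (Ncoa1 and Nrip1) and 0 fell, where 8.22% of all genes were called higher and 7.03% lower. The count of 0 lower was also 0 by DESeq2, by limma on the deposited log2 values and at an unadjusted p under 0.05. Between the ligands, 1 member (Ncoa2) was higher in TBT and 3 (Ppargc1a, Ppargc1b and Prdm16) were lower, where 12.8% of all genes were called higher and 11.1% lower. Counts of 1 to 3 among 9 genes are not read as particular to the members. The median log2 fold change of the members was 0.31, 0.22 and -0.05 in the 3 comparisons, in that order, and that of all genes 0.01, -0.01 and 0.02. The comparisons share libraries, each group entering 2 of them, and are not independent of each other. Without TBT 4, 5, 4 and 6 members were called, and the shares over all genes were then 12.8% higher and 14.9% lower, 16.4% and 16.6%, and 19.8% and 19.0%.

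**Figure D1:**
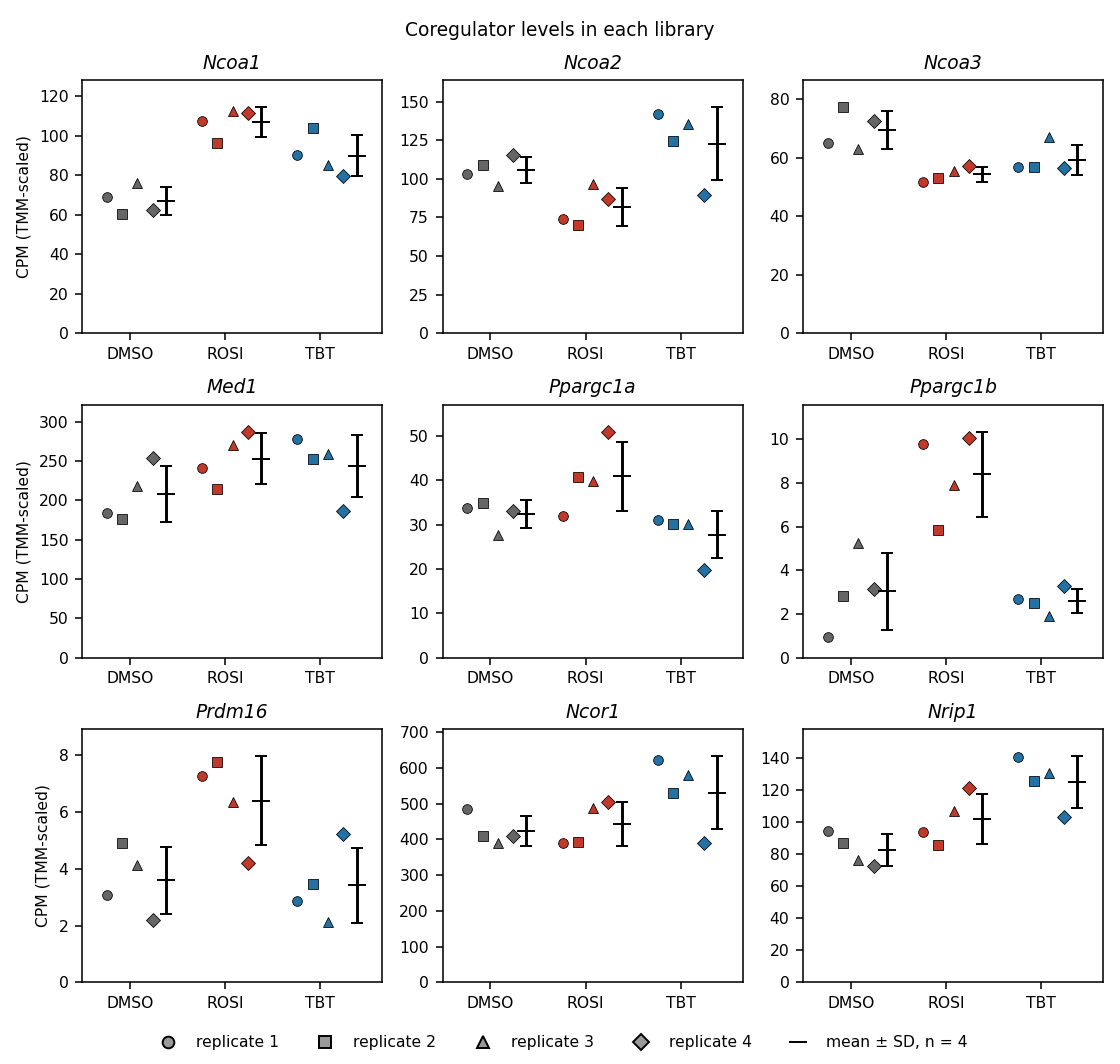
Level of each of the 9 coregulators in CPM (linear axis from 0) in the 4 DMSO, 4 ROSI and 4 TBT libraries; symbols give the replicate number and bars the mean ± SD. All 4 ROSI libraries lie above all DMSO libraries for Ncoa1 and Ppargc1b, and all 4 TBT libraries lie above all DMSO libraries for Nrip1.

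The p160 coactivators did not all move together: Ncoa1 rose with both ligands, Ncoa3 fell with ROSI, and Ncoa2 differed between the ligands. In ROSI against DMSO, the log2 values of Ncoa2 (-0.37 ± 0.15, not called) and Ncoa3 (-0.35 ± 0.12, called) were close to each other. Ncoa1 (SRC-1), the founding member of the family, had 69.1, 60.1, 76.3 and 62.4 CPM in DMSO 1 to 4. The ROSI libraries gave 107, 96.1, 112 and 112 CPM and the TBT libraries 90.3, 104, 85.4 and 79.6 CPM. Every ROSI and every TBT library was above the highest DMSO library, while ROSI and TBT overlapped. The rise was 1.59-fold in ROSI (log2 0.67 ± 0.12 SE, 95% interval 0.41 to 0.93, adjusted p = 0.00067) and 1.34-fold in TBT (log2 0.42 ± 0.12, 0.16 to 0.68, adjusted p = 0.031). The ROSI call held when any 1 library was left out. The TBT call ended without DMSO 1, 2 or 4 or TBT 1, 2 or 3, with log2 values of 0.34 to 0.44 and adjusted p of 0.053 to 0.10. The difference between the ligands was -0.25 (-0.51 to 0.01, adjusted p = 0.15).

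Ncoa2 (TIF2), which also binds the glucocorticoid receptor, had 103, 109, 95.3 and 116 CPM in DMSO, 74.0, 70.3, 96.9 and 86.9 in ROSI, and 142, 124, 136 and 89.4 in TBT. TBT 4 alone lay inside the ROSI range. Ncoa2 was 1.497-fold higher in TBT than in ROSI (log2 0.58 ± 0.15, 0.27 to 0.90, adjusted p = 0.010). The call ended without TBT 1 (0.48, adjusted p = 0.052). Against DMSO neither ligand passed the test, with -0.37 ± 0.15 in ROSI (adjusted p = 0.092) and 0.22 ± 0.15 in TBT (adjusted p = 0.33). Without TBT 4 both did, at -0.37 (adjusted p = 0.029) and 0.34 (adjusted p = 0.048).

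Ncoa3 (SRC-3) had 65.1, 77.2, 63.1 and 72.5 CPM in DMSO and 51.6, 52.9, 55.5 and 57.2 in ROSI, with no overlap. In TBT it had 56.8, 56.9, 66.96 and 56.5 CPM, where TBT 3 reached into the DMSO range. It fell by 0.35 ± 0.12 on the log2 scale in ROSI (-0.60 to -0.11, adjusted p = 0.037), which was a fold of 0.782. The call ended without DMSO 2 or 4 or any of the 4 ROSI libraries, with log2 values of -0.37 to -0.30 and adjusted p of 0.064 to 0.11. In TBT the difference from DMSO was -0.23 (-0.47 to 0.02, adjusted p = 0.19). Reads carried no strand, and in the GENCODE annotation (GRCm38) an exon of Ncoa3 shares up to 154 bases with Sulf2, a sulfatase gene on the opposite strand, which was looked up after the values were seen. Sulf2 itself fell, from 315 ± 43.2 CPM in DMSO to 135 ± 34.1 in ROSI (log2 -1.22 ± 0.18, adjusted p = 7.2e-05) and 180 ± 26.6 in TBT (-0.80 ± 0.17, adjusted p = 0.0071). The part of Sulf2 reads in the Ncoa3 counts was not tested. Exons of Prdm16 share up to 109 bases with B230104I21Rik, and those of Ncoa1 up to 68 with 4921501I09Rik. Both of these genes lie on the opposite strand and have no row in the count table. Ncor1 and Ttc19 share 1 base. The part of such reads in the Prdm16, Ncoa1 and Ncor1 counts was not tested.

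Med1, the Mediator subunit that contacts liganded receptors, passed the test in no comparison. It had 184, 176, 218 and 253 CPM in DMSO, 241, 214, 270 and 287 in ROSI, and 278, 253, 258 and 187 in TBT, and all 3 groups overlapped. The log2 differences were 0.28 (-0.04 to 0.60, adjusted p = 0.21), 0.23 (-0.09 to 0.55, adjusted p = 0.31) and -0.05 (-0.37 to 0.27, adjusted p = 0.83) for ROSI against DMSO, TBT against DMSO and TBT against ROSI. These intervals leave room for a rise of up to 1.52-fold in ROSI.

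**Figure D2:**
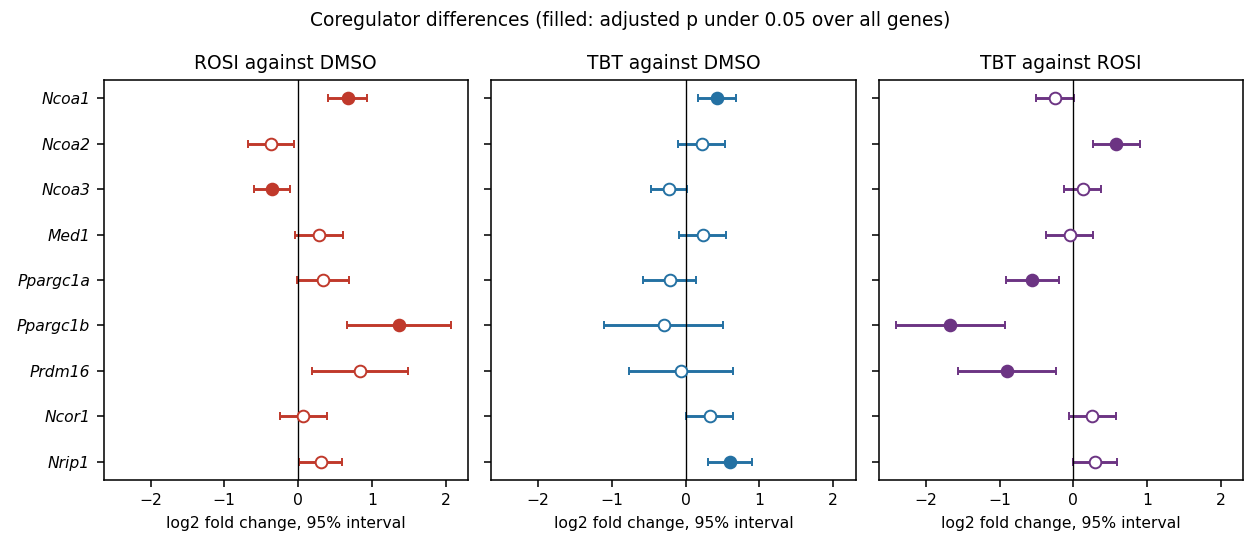
Log2 fold change of each coregulator (points) with its 95% interval (bars) in the 3 comparisons; filled points passed an adjusted p of 0.05 over all genes. Ppargc1b has the farthest point in ROSI against DMSO (1.37) and in TBT against ROSI (-1.67), and its TBT against DMSO interval spans 0.

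The PGC-1 coactivators, which bind nuclear receptors and other factors to raise mitochondrial and fatty acid oxidation genes, were both lower in TBT than in ROSI. Ppargc1b had 0.950, 2.81, 5.25 and 3.16 CPM in DMSO, from only 4 to 38 counts a library. In ROSI it had 9.78, 5.85, 7.89 and 10.0 CPM from 37 to 61 counts, and in TBT 2.68, 2.51, 1.93 and 3.26 CPM from 9 to 15 counts. Each ROSI library was above every other library. Ppargc1b rose 2.58-fold in ROSI against DMSO (log2 1.37 ± 0.34, 0.66 to 2.08, adjusted p = 0.0064) and stood at 0.314 of its ROSI level in TBT (log2 -1.67 ± 0.35, -2.41 to -0.93, adjusted p = 0.0027). Both calls held when any 1 library was left out, with ranges of 1.11 to 1.81 and -1.81 to -1.56. TBT and DMSO differed by -0.30 (-1.11 to 0.50, adjusted p = 0.62), and the value was 0.11 without DMSO 3. DMSO 3, the DMSO library with the most Ppargc1b, also had the highest adipocyte marker sum of its group, 608 CPM against 240 to 353. In these bulk libraries a change in the share of adipocytes and a change in RNA per cell cannot be told apart, and the part of either in the Ppargc1b values was not tested.

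Ppargc1a, the cold- and fasting-responsive PGC-1 gene, had more counts than Ppargc1b in every library. It had 33.7, 34.9, 27.8 and 33.2 CPM in DMSO, 32.1, 40.8, 39.8 and 51.0 in ROSI, and 31.1, 30.1, 30.2 and 19.8 in TBT. The lowest ROSI library lay just above the highest TBT library, and TBT 4 was far below the other TBT libraries. Ppargc1a was lower in TBT than in ROSI by 0.56 ± 0.17 on the log2 scale (-0.91 to -0.20 for TBT minus ROSI, adjusted p = 0.025). The call ended without ROSI 2 (-0.56, adjusted p = 0.054) or ROSI 4 (-0.46, adjusted p = 0.066). Without TBT 4 it held at a smaller value, -0.43. Against DMSO the values were 0.34 (-0.01 to 0.70, adjusted p = 0.16) in ROSI and -0.21 (-0.57 to 0.14, adjusted p = 0.40) in TBT.

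Prdm16, which drives the brown and beige fat programme with C/EBPβ and EBF2, was low in every library, with 10 to 49 counts. It had 3.09, 4.91, 4.14 and 2.21 CPM in DMSO, 7.27, 7.74, 6.34 and 4.21 in ROSI, and 2.86, 3.47, 2.14 and 5.22 in TBT. ROSI 4 lay within the ranges of the other groups. Prdm16 was lower in TBT than in ROSI (log2 -0.90 ± 0.32, -1.57 to -0.24, adjusted p = 0.046). This call ended without DMSO 1 or 3, ROSI 1, 2 or 3, or TBT 1, 2 or 3, at -0.93 to -0.74 and adjusted p of 0.051 to 0.13; without TBT 4 the value was -1.17 (adjusted p = 0.0089). ROSI against DMSO was 0.84 ± 0.31 (0.19 to 1.497, adjusted p = 0.061) and passed the test without DMSO 2 (1.01, adjusted p = 0.048), ROSI 4 (1.00, adjusted p = 0.037) or TBT 4 (0.84, adjusted p = 0.035). TBT against DMSO was -0.06 (-0.77 to 0.64, adjusted p = 0.91). Ppargc1b and Prdm16 have so few counts that the sensory receptor sum, highest in DMSO, is given again beside them: over 1504 symbols it was 295 to 775 CPM with vehicle, 62.8 to 76.0 with rosiglitazone and 115 to 195 with tributyltin. Its part in these 2 genes was not tested.

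The corepressor Nrip1 rose in TBT. It had 94.3, 86.8, 76.5 and 72.5 CPM in DMSO, 93.8, 85.8, 107 and 121 in ROSI, and 140, 125, 131 and 103 in TBT. All 4 TBT libraries were above all DMSO libraries, and ROSI overlapped both groups. The rise in TBT was 1.52-fold against DMSO (log2 0.60 ± 0.14, 0.30 to 0.90, adjusted p = 0.010), and it held when any 1 library was left out (0.52 to 0.68). ROSI against DMSO gave 0.31 (0.01 to 0.60, adjusted p = 0.13). TBT against ROSI gave 0.29 (0.00 to 0.59, adjusted p = 0.13), and passed, among the settings run, only without TBT 4 (0.38, adjusted p = 0.032).

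Ncor1, the platform of the histone deacetylase 3 complex, had 485, 408, 389 and 410 CPM in DMSO, 391, 391.5, 488 and 505 in ROSI, and 622, 529, 581 and 389 in TBT. TBT 1 to 3 were above every other library and TBT 4 was among the lowest. No comparison passed the test: ROSI against DMSO gave 0.07 (-0.25 to 0.39, adjusted p = 0.80), TBT against DMSO 0.33 (0.01 to 0.65, adjusted p = 0.15) and TBT against ROSI 0.26 (-0.06 to 0.58, adjusted p = 0.23). Without TBT 4 both TBT comparisons passed, at 0.45 (adjusted p = 0.013) and 0.38 (adjusted p = 0.028).

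Levels between genes were compared as CPM per kilobase of exon, with lengths of 3.735 to 11.169 kb from the GENCODE annotation, which is not the annotation behind the counts. Ncor1 was first in each group, at 37.9 ± 3.82 in DMSO, 39.7 ± 5.47 in ROSI and 47.5 ± 9.11 in TBT. Med1 was second, at 25.4 ± 4.33, 31.0 ± 3.94 and 29.9 ± 4.85. The libraries of these 2 genes overlapped in ROSI and not in DMSO or TBT. After them came Ncoa2 in DMSO (12.4 ± 1.01), Ncoa1 in ROSI (14.6 ± 1.02) and Nrip1 in TBT (15.5 ± 1.98). Each of these genes overlapped in range with the gene after it, which was Nrip1 in DMSO (10.3 ± 1.23) and ROSI (12.7 ± 1.92) and Ncoa2 in TBT (14.4 ± 2.75). In DMSO, Nrip1, Ncoa3 (9.23 ± 0.869) and Ncoa1 (9.14 ± 0.991) also overlapped as neighbours. Ncoa3 was sixth in ROSI (7.21 ± 0.331) and TBT (7.88 ± 0.677). Ppargc1a was seventh throughout, at 5.01 ± 0.489, 6.33 ± 1.20 and 4.30 ± 0.828. Ppargc1b and Prdm16 came last, at 0.814 ± 0.472 and 0.417 ± 0.138 in DMSO, 2.25 ± 0.521 and 0.743 ± 0.182 in ROSI, and 0.695 ± 0.147 and 0.398 ± 0.153 in TBT; their ranges were apart in ROSI and overlapped in DMSO and TBT.

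Ratios of counts within a library do not depend on how library sizes are scaled, and are given as description with no test. The log2 ratio of Ncor1 to Ncoa1 was 1.87 to 2.18 in ROSI, below every DMSO (2.35 to 2.81) and TBT library (2.29 to 2.79). That of Ncor1 to Ncoa2 was 2.33 to 2.54 in ROSI, above every DMSO (1.83 to 2.23) and TBT library (2.09 to 2.13), and TBT 4 lay with its group in this ratio. Nrip1 to Ppargc1b was 3.26 to 3.88 in ROSI and 4.98 to 6.09 in TBT, with no overlap, and 3.87 to 6.63 in DMSO. Med1 to Ncor1 was -1.17 to -1.06 in TBT and -0.87 to -0.70 in ROSI, apart as well, with DMSO (-1.40 to -0.70) spanning both. Ncoa3 to Ncoa2 averaged -0.61 ± 0.08 in DMSO, -0.58 ± 0.17 in ROSI and -1.03 ± 0.28 in TBT. Ppargc1b to Ppargc1a averaged -3.64 ± 1.14, -2.30 ± 0.45 and -3.42 ± 0.58; the groups of these 2 ratios overlapped.

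**Figure D3:**
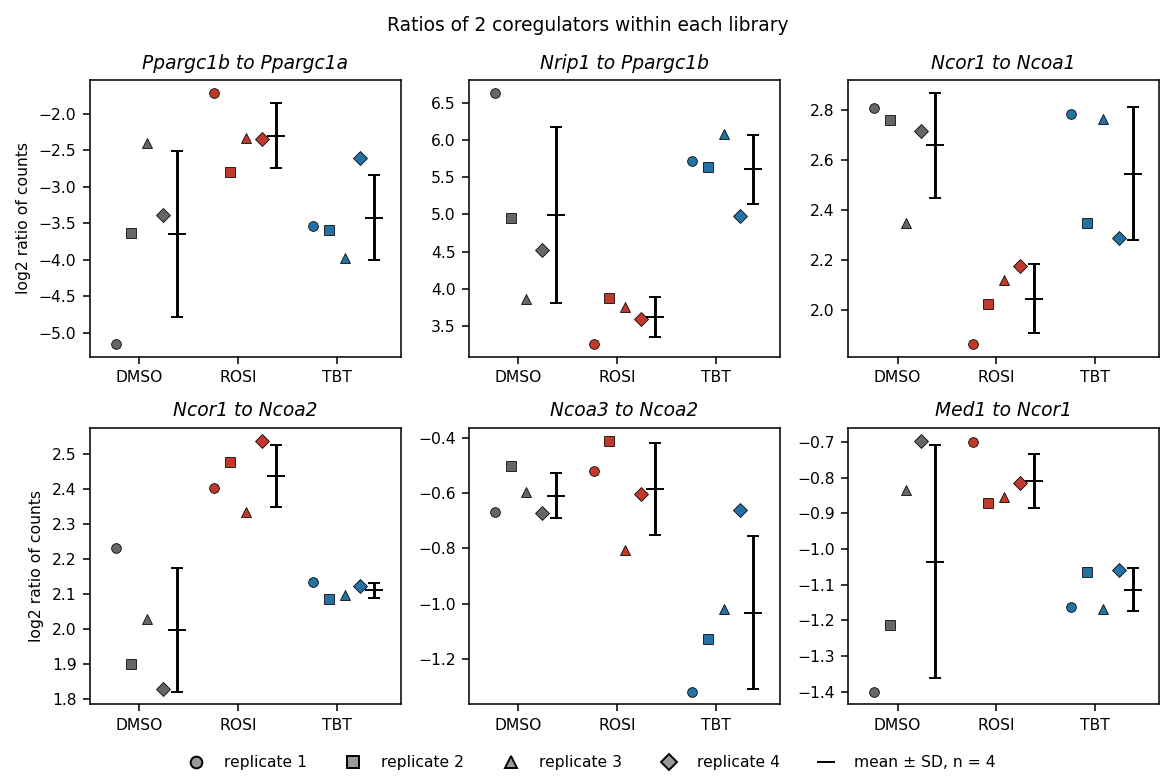
Log2 ratio of the counts of 2 coregulators in each library, by group; symbols give the replicate number and bars the mean ± SD of 4 libraries. The 4 ROSI libraries lie apart from all others for Ncor1 to Ncoa1 (2.18 or less) and for Ncor1 to Ncoa2 (2.33 or more).

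Of the receptors, Pparg had 62.6 ± 10.3 CPM with vehicle, 82.9 ± 12.0 in ROSI and 79.9 ± 12.5 in TBT, and passed the test in no comparison (0.41, adjusted p = 0.066; 0.36, adjusted p = 0.12; -0.05, adjusted p = 0.84). Rxra, its partner and a TBT receptor, had 128 ± 6.99, 165 ± 25.9 and 114 ± 17.4 CPM and was lower in TBT than in ROSI (log2 -0.53 ± 0.14, adjusted p = 0.011), though the libraries of these groups overlapped. Against DMSO, Rxra was not called in ROSI (0.36, adjusted p = 0.068) or in TBT (-0.17, adjusted p = 0.43).

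Outside the 9 members, 69 further coregulators in 4 lists were tested, and 3, 6 and 11 passed in the 3 comparisons in the order above (2 higher and 1 lower, 3 and 3, 8 and 3). The shares called over all genes were 10.0% higher and 12.6% lower, 8.22% and 7.03%, and 12.8% and 11.1%. The medians were -0.05, 0.00 and 0.13. Without TBT 4 the counts were 8, 19 and 31, beside 12.8% higher and 14.9% lower, 16.4% and 16.6%, and 19.8% and 19.0% of all genes. All names below come from the rule of up to 3 genes with the smallest p in each list and comparison.

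Of 13 other coactivators 0 passed by edgeR in ROSI against DMSO, where the median was -0.19; at an unadjusted p under 0.05 there were 1 higher and 1 lower, and DESeq2 and limma each called 1 higher. In TBT against DMSO 2 rose and 1 fell. Tgs1, which methylates RNA caps and binds the coactivator NCOA6, rose by 0.64 ± 0.17 (adjusted p = 0.020), and Wwtr1 (TAZ, a Hippo pathway coactivator) by 0.50 ± 0.14 (adjusted p = 0.026). Prmt1, an arginine methyltransferase, fell by 0.79 ± 0.20 (adjusted p = 0.015). Against ROSI, Tgs1 (0.60, adjusted p = 0.018), Wwtr1 (0.55, adjusted p = 0.0099) and the acetyltransferase Kat2b (0.67 ± 0.17, adjusted p = 0.011) were higher in TBT and 0 were lower (0 by DESeq2 and limma as well, 4 at an unadjusted p under 0.05). Leaving out TBT 1 ended each of these 6 calls (adjusted p = 0.054 to 0.10). Prmt1 against DMSO was also lost without TBT 2, Tgs1 without DMSO 1, 2 or 4 or TBT 3, and Wwtr1 without DMSO 1, 2 or 3 or TBT 2 or 3; Tgs1 against ROSI was lost without ROSI 1 or TBT 3. Wwtr1 against DMSO was also lost in the fit of only the 2 groups compared (adjusted p = 0.0504) and with the replicate number as a block (0.067).

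Of 14 other corepressors and complex subunits, 1 rose and 1 fell in TBT against DMSO, and 1 was higher and 1 lower in TBT than in ROSI. In TBT, the deacetylase gene Hdac2 was higher than in DMSO (0.61 ± 0.15, adjusted p = 0.012) and ROSI (0.49 ± 0.15, adjusted p = 0.024). Tbl1x, a subunit of the NCoR complex, was lower than in DMSO (-0.41 ± 0.12, adjusted p = 0.025) and ROSI (-0.45 ± 0.12, adjusted p = 0.0097). The Hdac2 call against ROSI ended without ROSI 1 or 3 or TBT 1 or 3 (adjusted p = 0.073 to 0.10), and the Tbl1x call against DMSO without DMSO 1 or 3 or TBT 2 (adjusted p = 0.060 to 0.078). Both calls also ended in the fit of only the 2 groups compared (adjusted p = 0.053 and 0.0696) and with the replicate block (0.054 and 0.051), and Tbl1x without the count filter (0.0596).

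Of 29 other Mediator subunits, 2 rose in ROSI against DMSO. Med22 went from 18.7 ± 2.04 to 29.2 ± 4.50 CPM (log2 0.65 ± 0.16, adjusted p = 0.0071) and Med20 from 57.0 ± 10.6 to 82.2 ± 5.37 CPM (0.52 ± 0.15, adjusted p = 0.014). In TBT against DMSO 0 passed by edgeR, with 3 higher and 1 lower at an unadjusted p under 0.05, 1 higher by DESeq2 and 1 lower by limma. Against ROSI, Med22 was lower in TBT (-0.84 ± 0.16, adjusted p = 0.0015), and 3 subunits were higher, among them Med14 (0.46 ± 0.13, adjusted p = 0.016) and the cyclin gene Ccnc (0.62 ± 0.20, adjusted p = 0.029). The Med20 call ended without DMSO 2 (adjusted p = 0.052), Med14 without ROSI 1 or 3 or TBT 1 (0.052 to 0.075) and Ccnc without ROSI 1, 3 or 4 or TBT 1 or 3 (0.051 to 0.17).

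Of 13 chromatin remodelling and methyltransferase partners 0 passed in ROSI against DMSO by edgeR, DESeq2 or limma, and 1 was higher at an unadjusted p under 0.05. Smarcd1, a SWI/SNF subunit, was lower in TBT than in DMSO (-0.77 ± 0.22, adjusted p = 0.029) and ROSI (-0.86 ± 0.22, adjusted p = 0.011). The first of these calls ended without DMSO 1, 2 or 3 or TBT 2 or 3 (adjusted p = 0.067 to 0.093), in the fit of only the 2 groups compared (0.0598) and with the replicate block (0.0592). Smarca2, an ATPase of the same complex, was higher in TBT than in ROSI, at 373 ± 117 against 198 ± 42.3 CPM (0.91 ± 0.21, adjusted p = 0.0058).

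Of 12 tested genes downstream of or partnered with the PGC-1 coactivators, 7 rose, 0 fell and 5 did not pass in ROSI against DMSO, with a median of 0.55, where 10.0% of all genes were called higher (0 lower also by DESeq2, by limma and at an unadjusted p under 0.05). Acadm, a fatty acid dehydrogenase, went from 153 ± 48.1 to 492 ± 42.6 CPM (log2 1.69 ± 0.19, adjusted p = 5.2e-06), Cycs (cytochrome c) from 33.6 ± 5.78 to 103 ± 9.56 (1.62 ± 0.16, adjusted p = 2.1e-06) and Pdk4, a brake on pyruvate oxidation, from 135 ± 39.6 to 398 ± 12.9 (1.56 ± 0.17, adjusted p = 5.5e-06). In the TBT group 4 rose and 0 fell against DMSO by edgeR and 8 did not pass (median 0.25; 8.22% of all genes higher; 0 fell by the same 3 other readings), with Pdk4 at 375 ± 48.6 CPM (1.47 ± 0.17, adjusted p = 5.8e-05), Acadm at 255 ± 38.8 CPM (0.74 ± 0.18, adjusted p = 0.014) and Ucp2 at 163 ± 69.8 CPM (0.69 ± 0.22, adjusted p = 0.044). The Ucp2 call ended without DMSO 1, 2 or 4, ROSI 3 or 4, or TBT 1, 3 or 4 (adjusted p = 0.054 to 0.11), and without TBT 4 the value was 0.35. It also ended at a mean of at least 5 CPM (adjusted p = 0.053), with only the 2 groups compared (0.073), with the replicate block (0.082) and by limma on the deposited log2 values (0.0503). Ucp2 also rose in ROSI against DMSO (1.03 ± 0.22, adjusted p = 0.0023) and was not called between the ligands (-0.34, adjusted p = 0.26). Between the ligands 0 were higher, by edgeR or those readings, and 4 were lower in TBT (median -0.38; 11.1% of all genes lower), among them Ppara, the fatty acid receptor (5.07 ± 1.77 against 24.7 ± 2.37 CPM; log2 -2.26 ± 0.25, adjusted p = 8.3e-06), Cycs (-1.13 ± 0.16, adjusted p = 9.3e-05) and Acadm (-0.95 ± 0.18, adjusted p = 0.0013). Without TBT 4, 1 was higher and 6 were lower, beside 19.8% and 19.0% of all genes. Ppara had 7.35 ± 2.50 CPM in DMSO. It rose in ROSI against DMSO (1.73 ± 0.24, adjusted p = 4.3e-05) and was not called in TBT against DMSO (-0.54 ± 0.27, adjusted p = 0.18). Cpt1b and Fndc5 were below the filter. Fndc5 had 7 counts in all DMSO, 10 in all ROSI and 38 in all TBT libraries, and Cpt1b had 33, 38 and 26. The adipocyte marker sums given above, carried by Fabp4 and Cidec, were also highest in ROSI, and their part in these values was not tested.

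The partners of Prdm16 and brown fat genes, a list that contains Med1 too, split in both directions. Of 13 tested, 4 rose and 2 fell in ROSI against DMSO, where 10.0% of all genes were called higher and 12.6% lower. The shares of all genes were 8.22% and 7.03% in TBT against DMSO, and 12.8% and 11.1% in TBT against ROSI. Elovl3, a fatty acid elongase, went from 6.43 ± 3.30 to 37.3 ± 6.90 CPM (log2 2.49 ± 0.25, adjusted p = 2.3e-06) and the cytochrome oxidase gene Cox8b from 0.506 ± 0.371 to 4.63 ± 1.40 (3.12 ± 0.48, adjusted p = 0.00013). Dio2, which activates thyroid hormone, fell from 104 ± 36.8 to 27.8 ± 7.38 CPM (-1.91 ± 0.27, adjusted p = 5.0e-05). In TBT against DMSO 2 rose and 2 fell: Elovl3 stood at 0.755 ± 0.137 CPM (-3.11 ± 0.40, adjusted p = 0.00015) and the lipid droplet gene Cidea went from 4.22 ± 1.27 to 1.17 ± 0.394 (-1.84 ± 0.33, adjusted p = 0.0019). Ebf2, a partner of Prdm16, went from 3.32 ± 0.960 to 8.13 ± 0.338 CPM (1.32 ± 0.30, adjusted p = 0.0085). Ebf2 also rose in ROSI against DMSO, to 6.28 ± 2.55 CPM (0.96 ± 0.30, adjusted p = 0.029). It was not called between the ligands (0.37, adjusted p = 0.34). Against ROSI, 2 were higher and 3 lower in TBT, with Elovl3 at -5.60 ± 0.35 (adjusted p = 3.7e-08), Cidea at -2.64 ± 0.31 (adjusted p = 1.7e-05) and Ebf3 at 0.97 ± 0.15 (adjusted p = 0.00018). Without TBT 4, 3 rose and 5 fell against DMSO, and 2 were higher and 5 lower against ROSI. The shares of all genes were then 16.4% higher and 16.6% lower, and 19.8% and 19.0%. Ucp1, the defining brown fat gene, was below the filter with 7 counts in all DMSO, 9 in all ROSI and 0 in all TBT libraries, and Cox7a1 was below it as well.

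**Figure D4:**
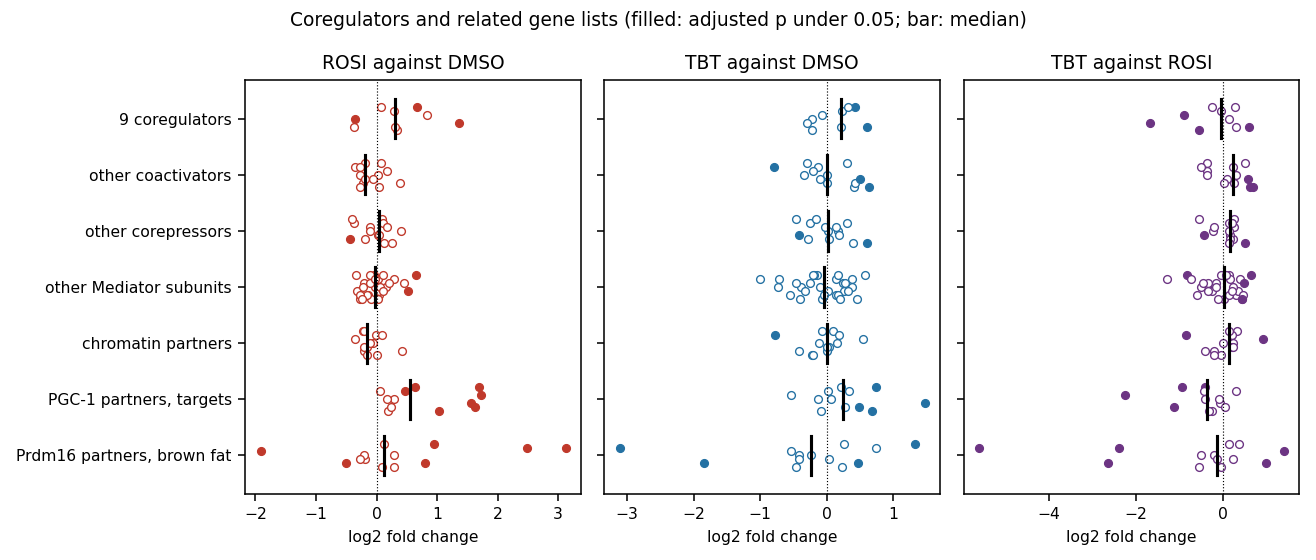
Log2 fold changes of the 9 coregulators and of 6 related gene lists in the 3 comparisons; each point is a gene, filled points passed an adjusted p of 0.05 and the bar is the median. The PGC-1 list has its median at 0.55 in ROSI against DMSO and at -0.38 in TBT against ROSI, while the 4 lists of other coregulators have medians between -0.19 and 0.22.

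Among 10233 tested genes with a mean of at least 5 CPM, those whose log2 CPM over the 12 libraries was most like each changed member are given by Pearson r, as description; the 12 libraries fall into 3 groups, which the values share. For Ncoa1 these were Ppp2r1b (0.97), Dus2 (0.97) and Mthfd2 (0.96), for Ncoa2 Cntln (0.98), Ash1l (0.97) and Maml2 (0.97), and for Ncoa3 Ggta1 (0.95), Slco3a1 (0.95) and Arhgef25 (0.94). Ppargc1a was most like Ttc9c (0.93), Hmgb3 (0.92) and Tnfrsf23 (0.89). Ppargc1b was most like Fam73b (0.94), Rdh16 (0.93) and the adipocyte factor gene Cebpa (0.92). Prdm16 was most like Hspe1 (0.94), Mrpl17 (0.93) and Gpam (0.93), and Nrip1 most like Myo5a (0.96), Prex2 (0.95) and Pkp2 (0.94).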

How the data were processed

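The 12 RNA-seq libraries, 4 per group, were grouped by their titles. Libraries were made from rRNA-depleted RNA and read on a SOLiD sequencer (single 50 nt reads, no strand), per the labels' protocols, so overlapping and antisense genes cannot be told apart. The authors deposited raw read counts per gene symbol and regularized log2 values. Per the submitters' processing notes the build was mm9, with FastQC, SAMtools and DESeq2 used; for the aligner, the counter and the annotation, nothing is given in the sources used here.

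Counts were tested in R 4.3.3 with edgeR 4.0.16: filterByExpr with the 3 groups, TMM factors, 1 quasi-likelihood model (glmQLFit, glmQLFTest) over 12 libraries, and Benjamini-Hochberg adjustment over all 12323 genes kept, at a threshold of 0.05. The SE is the log2 fold change over the root of F. CPM is a count over the TMM-scaled library size. Likeness used a prior count of 2. Samples of a group were no copies: the lowest chi-square per degree of freedom was 4.66. The scripts were checked on simulated data. The alternatives were 7 other settings, with DESeq2 1.42.0 and limma 3.58.1 among them, and each library left out in turn. The members, the 6 lists and the naming rule (all 9 members, and up to 3 genes with the smallest p per list and comparison) were chosen with earlier results of these data known. The result of 1 gene that the rule names is not reported here.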

Additional observations from a re-analysis of the deposited data

Results flagged for a closer look

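Within the 27 groups of 4 libraries (9 coregulators in 3 treatments), a library standing apart was looked for by its gap to the nearest other library over the range of the group, against Dixon's 95% critical value. Chance flags about 1 in 20 groups, and 2 of 27 were found. Ncoa3 had 66.96 CPM in TBT 3 against 56.5 to 56.9 in the other TBT libraries (gap over range 0.962). Ppargc1a had 19.79 CPM in TBT 4 against 30.1 to 31.1 in the others (0.912).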

How the results depend on the processing

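Leaving out 1 library at a time gave 2 to 5 called members in ROSI against DMSO, 1 to 4 in TBT against DMSO and 2 to 6 in TBT against ROSI; 2 to 8, 2 to 19 and 4 to 31 of the 69 other coregulators; and 2188 to 3418, 998 to 4061 and 1704 to 4782 of all genes (2787, 1879 and 2940 with every library). The highest count of each came without TBT 4. The direction reversed, among values that were not called, for TBT against DMSO in Ppargc1b (-0.56 to 0.11) and Prdm16 (-0.32 to 0.10, with 0.02 without DMSO 3, 0.0047 without TBT 1 and 0.098 without TBT 3), and for TBT against ROSI in Med1 (-0.14 to 0.056). Fitting only the 2 groups compared gave 5 called members and 6 other coregulators in ROSI against DMSO, beside 3329 of all genes. In TBT against DMSO it gave 1 and 3, beside 1274 of all genes. Without the count filter 1 member was called in TBT against DMSO, beside 2516 of 22434 genes. At a mean of at least 5 CPM 2 of 7 members were called in TBT against ROSI, since Ppargc1b and Prdm16 fell out. Over the 7 other settings, 2 to 4 members were called in TBT against ROSI, beside 2154 to 3263 of all genes. The DESeq2 Wald test called 10 other coregulators in TBT against DMSO, beside 2340 of all genes. The replicate block gave 1 called member, 3 other coregulators and 1160 of all genes in TBT against DMSO, and 2 members in TBT against ROSI; same-numbered libraries correlated at -0.43 to 0.14 over 12 pairs, with 2 over 0.1, and 0 libraries were closest to their own number, so the numbers were not taken as a pairing. Over the 7 other settings, 169 single-member values kept direction and side of the threshold, 9 lost a call (Ncoa3 in ROSI against DMSO, Ncoa1 in TBT against DMSO, and Ppargc1a and Prdm16 in TBT against ROSI), 5 gained one (Ncoa2 and Prdm16 in ROSI against DMSO) and 0 reversed. The cause of these shifts was not tested. All 3 groups share 1 model, so a TBT library can alter the SE in ROSI against DMSO. Without TBT 4, Ncoa2 stayed at -0.37 in that comparison and its SE went from 0.15 to 0.12. Prdm16 stayed at 0.84 and its SE went from 0.31 to 0.29. Depth limits Ppargc1b and Prdm16, with 4 to 61 counts a library.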
